A study of Homo sapiens with 3 samples.

Results

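The miR-99, miR-100 and miR-125 miRNAs come from 3 paralogous clusters on chromosomes 11, 21 and 19. The 10 mature miRNAs described here were chosen by name, 5 products of the 5p arm and 5 of the 3p arm, out of 2588 mature miRNAs in the deposited tables. Small RNA was sequenced from 3 established human cancer lines. C643 derives from anaplastic thyroid carcinoma, ES-2 is an ovarian line and Huh-7 a liver line. Each group was 1 library of untreated parental cells, grown in DMEM with serum and harvested 48 h after seeding, so no difference below has a replicate check. The C643 library held 8183100 miRNA reads, that of ES-2 1663181 and that of Huh-7 2173587. Intervals are 95% counting intervals and cover neither culture nor library variation. miR-122-5p, the defining miRNA of hepatocytes, held 13.3% of reads in Huh-7, 0.00572% in C643 and 0.000361% in ES-2. No defining miRNA was set for thyroid or ovarian carcinoma cells.

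A miRNA is cut from a hairpin precursor, and the 5p and 3p products of its arms may each guide repression of mRNAs. Pairing is led by the seed, bases 2 to 8 of the mature miRNA. The miR-99 and miR-100 family is known for repressing MTOR, a kinase that promotes growth, while miR-125 is the vertebrate form of lin-4, the first miRNA described in worms, and is known for repressing LIN28. In each cluster a let-7 gene lies between a miR-99 or miR-100 gene and a miR-125 gene, and the chromosome 11 and 21 clusters lie in long non-coding host genes.

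The mature sequences are shown because the members are told apart by few bases. All 10 were found in the RefSeq table (GRCh38.p14), and capitals mark the seed. The 5p arms of miR-99a, miR-99b and miR-100 share 1 seed:
hsa-miR-100-5p: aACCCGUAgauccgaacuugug
hsa-miR-99a-5p: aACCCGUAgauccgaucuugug
hsa-miR-99b-5p: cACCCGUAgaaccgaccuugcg
The 5p arms of miR-125a and miR-125b share another seed, and miR-125a-5p is 24 bases long where the other members are 22:
hsa-miR-125a-5p: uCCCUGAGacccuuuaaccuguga
hsa-miR-125b-5p: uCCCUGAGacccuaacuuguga
The 3p arms of miR-99a and miR-99b share a seed as well:
hsa-miR-99a-3p: cAAGCUCGcuucuaugggucug
hsa-miR-99b-3p: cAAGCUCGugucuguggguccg
The 3p arms of miR-125 each have their own seed, so those of miR-125b name the locus they come from:
hsa-miR-125a-3p: aCAGGUGAgguucuugggagcc
hsa-miR-125b-1-3p: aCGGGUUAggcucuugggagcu
hsa-miR-125b-2-3p: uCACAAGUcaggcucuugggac
Counted from the 5′ end, miR-99a-5p differs from miR-100-5p by 1 base, A16U, and miR-99b-5p differs from miR-100-5p by 4, A1C, U11A, A16C and U21C. The mature miR-125b-5p is the same at both of its loci. Compared base by base from the 5′ end, without an offset, miR-125b-1-3p and miR-125b-2-3p differ at 17 of 22 positions. They do share a run of bases, which starts later in miR-125b-2-3p.

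The deposited tables name a chromosome for each locus, and positions were taken from GENCODE 29 on GRCh38. On chromosome 11, on the minus strand, MIR100 (122152229 to 122152308), MIRLET7A2 (122146522 to 122146593) and MIR125B1 (122099757 to 122099844) lie in introns of MIR100HG, with 52384 bases between MIR100 and MIR125B1. On chromosome 21, on the plus strand, MIR99A (16539089 to 16539169), MIRLET7C (16539828 to 16539911) and MIR125B2 (16590237 to 16590325) lie in introns of MIR99AHG, with 51067 bases between MIR99A and MIR125B2. On chromosome 19, on the plus strand, MIR99B (51692612 to 51692681), MIRLET7E (51692786 to 51692864) and MIR125A (51693254 to 51693339) lie in an intron of the protein-coding gene SPACA6. An exon of SPACA6P-AS, a non-coding RNA of the opposite strand, also covers all 3. There the whole cluster is compact, with 572 bases between MIR99B and MIR125A.

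Together the 10 miRNAs held 6.86% of miRNA reads in C643 (6.84 to 6.88) and 13.2% in ES-2 (13.17 to 13.27), against 2.49% in Huh-7 (2.47 to 2.51). The share of a miRNA is its reads over all miRNA reads of its library, which a scaling factor between libraries cannot change. It cannot tell fewer expressing cells from fewer molecules per cell. In C643 and ES-2 the sum was carried by the chromosome 11 cluster, whose specific products held 4.16% and 11.2% of reads. In Huh-7 the chromosome 19 cluster led with 1.95%. Among the 10 miRNAs, the specific products of chromosome 21 held 0.00913% in C643 and 0.0851% in ES-2, against 0.367% in Huh-7. Between the highest and the lowest line, the share differed 281-fold for chromosome 11 (262 to 299.9), 40.2-fold for chromosome 21 (37.3 to 43.3) and 3.19-fold for chromosome 19 (3.12 to 3.26).

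**Figure D1:**
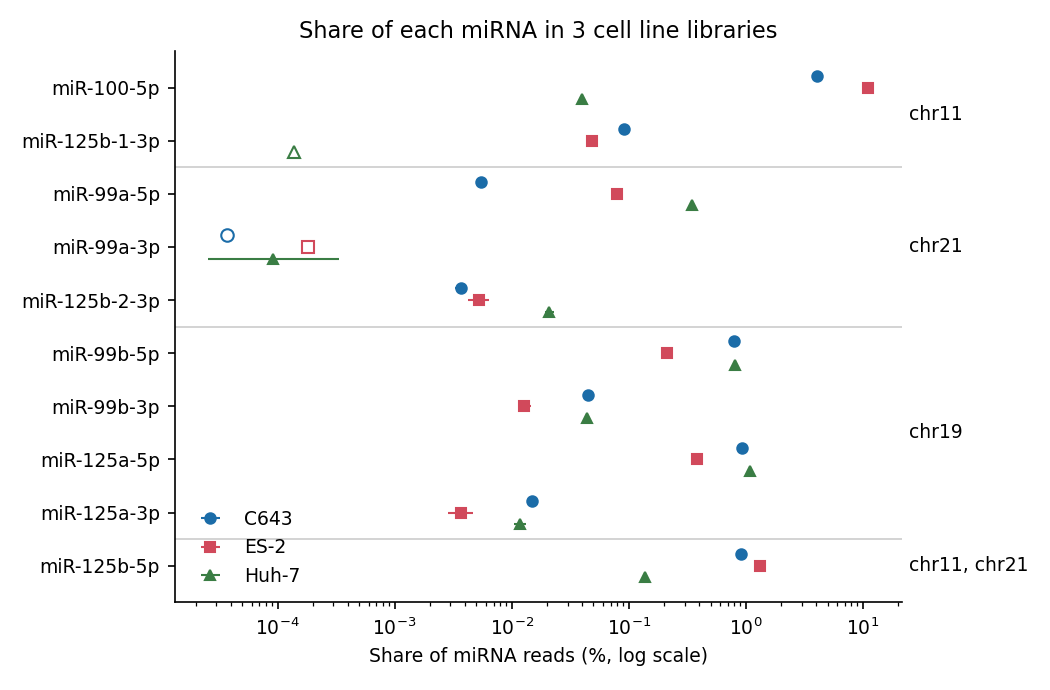
Share of miRNA reads (%, log scale) of the 10 miRNAs in the C643, ES-2 and Huh-7 libraries, grouped by the chromosome of their cluster. Bars are Wilson 95% intervals and open symbols mark 0 reads, drawn at the share that 3 reads would give. miR-100-5p in Huh-7 lies at 0.0399%, against 4.07% and 11.2% in the other lines. Of the members made only at chromosome 21, those with over 3 reads are highest in Huh-7.

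On chromosome 11, hsa-miR-100-5p was read 333032 times in C643 and 185512 in ES-2, against 868 in Huh-7. It ranked 5 among all miRNAs in C643 and 3 in ES-2, but 110 in Huh-7. By share, ES-2 exceeded C643 2.74-fold (2.73 to 2.76) and Huh-7 279-fold (261 to 299). miR-125b-1-3p, the 3p product made at chromosome 11, was read 7465 times in C643 and 803 in ES-2, against 0 in Huh-7. C643 and ES-2 thus both carried this arm, C643 at 1.89 times the share of ES-2 (1.76 to 2.03), while the 0 reads in Huh-7 allow a share of up to 0.000138%. Relative to Huh-7, its share was at least 661-fold higher in C643 and at least 350-fold higher in ES-2, each computed against 3 reads.

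Other specific products of chromosome 11 had 0 reads in Huh-7 too. miR-100-3p had 368 reads in C643, 132 reads in ES-2 and 0 reads in Huh-7. By share, ES-2 exceeded C643 1.76-fold for this arm (1.45 to 2.15). let-7a-2-3p, the 3p arm of the let-7 gene in the same cluster, had 266, 68 and 0. Its share in ES-2 was 1.26-fold that in C643, within counting error (0.964 to 1.64). At the ratio of miR-100-3p to miR-100-5p seen in C643 or ES-2, the 868 reads of miR-100-5p in Huh-7 would go with 0.959 or 0.618 reads of miR-100-3p, and with 0.693 or 0.318 reads of let-7a-2-3p at its own ratios. These numbers are under the 3 reads used as the limit for a count of 0. For miR-125b-1-3p the same calculation gave 19.5 reads at the ratio of C643 and 3.76 at that of ES-2.

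Among the members made only at chromosome 21 with over 3 reads, Huh-7 had the highest share and C643 the lowest. The let-7c products of that cluster, given below, did not follow this order. hsa-miR-99a-5p had 447 reads in C643, 1329 reads in ES-2 and 7508 reads in Huh-7, or 0.00546%, 0.0799% and 0.345% of the library. Huh-7 thus exceeded ES-2 4.32-fold by share (4.08 to 4.58) and C643 63.2-fold (57.5 to 69.6), and no 2 intervals overlapped. miR-125b-2-3p, the 3p product made at chromosome 21, had 300 reads in C643, 87 reads in ES-2 and 457 reads in Huh-7. Its share of 0.021% in Huh-7 was 4.02-fold that in ES-2 (3.20 to 5.06) and 5.74-fold that in C643 (4.96 to 6.63). ES-2 exceeded C643 1.43-fold (1.12 to 1.81). The passenger arm miR-99a-3p had 0 reads in C643 and ES-2 and 2 in Huh-7, so that it gave no comparison.

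miR-125b-5p is made at both loci, and its total (75107 reads for C643, 22020 for ES-2 and 3014 for Huh-7) does not tell them apart. By share it held 0.918%, 1.32% and 0.139%, and ES-2 exceeded Huh-7 9.55-fold (9.19 to 9.92). The deposited rows for its loci do not tell them apart either. The chromosome 11 row held 50.8% of its reads in C643 (50.4 to 51.1) and 49.9% in ES-2 (49.2 to 50.5), against 51.3% in Huh-7 (49.5 to 53.04), close to an even split in each line. The 3p arms gave another picture. Of the reads from both miR-125b 3p arms, chromosome 11 held 96.1% in C643 (95.7 to 96.5) and 90.2% in ES-2 (88.1 to 92.01), against 0 of 457 in Huh-7, which allows up to 0.656%. The neighbours at the same loci had the same order of lines. Of miR-100-5p and miR-99a-5p together, miR-100-5p held 99.87% in C643 and 99.3% in ES-2, against 10.4% in Huh-7 (9.73 to 11.03). In Huh-7 that lay above the 0.656% allowed for the 3p arms.

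**Figure D2:**
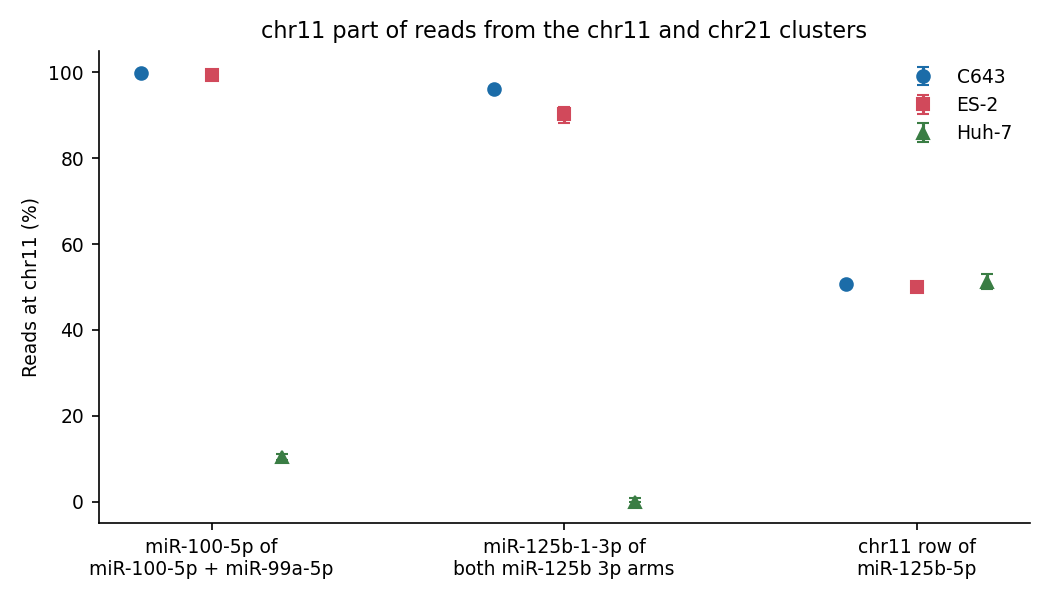
Reads at chromosome 11 as a percentage of those at chromosomes 11 and 21, for miR-100-5p against miR-99a-5p, for the miR-125b 3p arms and for the rows of miR-125b-5p, with Wilson 95% intervals. By the first measures Huh-7 lies at 10.4% and 0%, far below C643 and ES-2 at 90.2% or more, while the rows of the shared 5p sequence stay between 49.9% and 51.3% in all 3 libraries.

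miR-100-5p was 745-fold miR-99a-5p in C643 (679 to 817) and 140-fold in ES-2 (132 to 147). In Huh-7 the order was turned, at 0.116 (0.108 to 0.124). Since these miRNAs differ by 1 base and the tolerance of the alignment for mismatches is not given in the sources used here, some reads of the rarer one may belong to the other. miR-99a-5p reached 0.134% of miR-100-5p in C643 and 0.716% in ES-2, whereas miR-100-5p reached 11.6% of miR-99a-5p in Huh-7. How many reads were placed at the wrong member was not tested.

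On chromosome 19 all members had 61 reads or more in each line and ES-2 had the lowest share of each. hsa-miR-99b-5p had 64443 reads in C643, 3544 reads in ES-2 and 17637 reads in Huh-7, which gave 0.788%, 0.213% and 0.811% of reads. miR-125a-5p had 75481, 6337 and 23432 reads, or 0.922%, 0.381% and 1.08%. C643 and Huh-7 lay close for both. By share Huh-7 was the higher, 1.03-fold for miR-99b-5p (1.013 to 1.05) and 1.17-fold for miR-125a-5p (1.15 to 1.19), but on the deposited scale C643 was the higher, 1.52-fold and 1.34-fold, so that the direction depends on the scaling. Of the 3p arms, miR-99b-3p had 3674, 214 and 960 reads and miR-125a-3p 1225, 61 and 255. By share, miR-99b-3p did not differ between C643 and Huh-7 beyond counting error (1.02-fold, 0.947 to 1.09). miR-125a-3p was higher in C643, 1.28-fold (1.11 to 1.46), unlike miR-125a-5p.

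The arms of MIR99B kept nearly the same ratio in the 3 lines. The 5p arm exceeded the 3p arm 17.5-fold in C643 (17.0 to 18.1) and 16.6-fold in ES-2 (14.4 to 19.01), against 18.4-fold in Huh-7 (17.2 to 19.6), and the intervals of all 3 pairwise quotients included 1. The largest of these quotients, Huh-7 over ES-2, was 1.11 with an interval from 0.952 to 1.29. For MIR125A the ratio was 61.6 in C643 (58.2 to 65.2) and 104 in ES-2 (80.8 to 134), against 91.9 in Huh-7 (81.2 to 104), lower in C643 than in either of the others. miR-100-5p exceeded miR-100-3p 905-fold in C643 and 1405-fold in ES-2. For MIR99A the bound was at least 149-fold in C643 and at least 443-fold in ES-2.

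For miR-125b, with both loci summed, the ratio of the 5p to the 3p arms was 9.67 in C643 (9.45 to 9.90) and 24.7 in ES-2 (23.1 to 26.5), against 6.60 in Huh-7 (5.98 to 7.28). ES-2 exceeded Huh-7 3.75-fold (3.33 to 4.23) in this ratio. The locus of the 3p arms differed between these lines as well, and locus and arm cannot be told apart for the 5p product. With 1 locus per mature miRNA, which leaves out about as many miR-125b-5p reads as it keeps, the ratios were 4.91, 12.4 and 3.38, in the same order of lines.

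Grouped by seed, the 5p arms of miR-99 and miR-100 differed more between the lines than those of miR-125. The former held 4.86% of reads in C643 and 11.4% in ES-2, against 1.20% in Huh-7, a 9.56-fold range (9.44 to 9.69). The latter held 1.84%, 1.70% and 1.22%, a 1.51-fold range (1.49 to 1.53). Both ranges are of shares, and the deposited columns, whose sums differ between lines, would give other ranges. Within the miR-125 seed the leading paralog differed. miR-125b-5p made up 49.9% of it in C643 and 77.7% in ES-2, against 11.4% in Huh-7. Within the miR-99 and miR-100 seed, miR-100-5p made up 83.7% in C643 and 97.4% in ES-2. In Huh-7 it made up 3.34%, with 67.8% from miR-99b-5p and 28.9% from miR-99a-5p. The reads of one seed over the other were 2.64 in C643 and 6.71 in ES-2, against 0.984 in Huh-7. These are ratios of reads, and different miRNAs may enter a library with different efficiency.

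**Figure D3:**
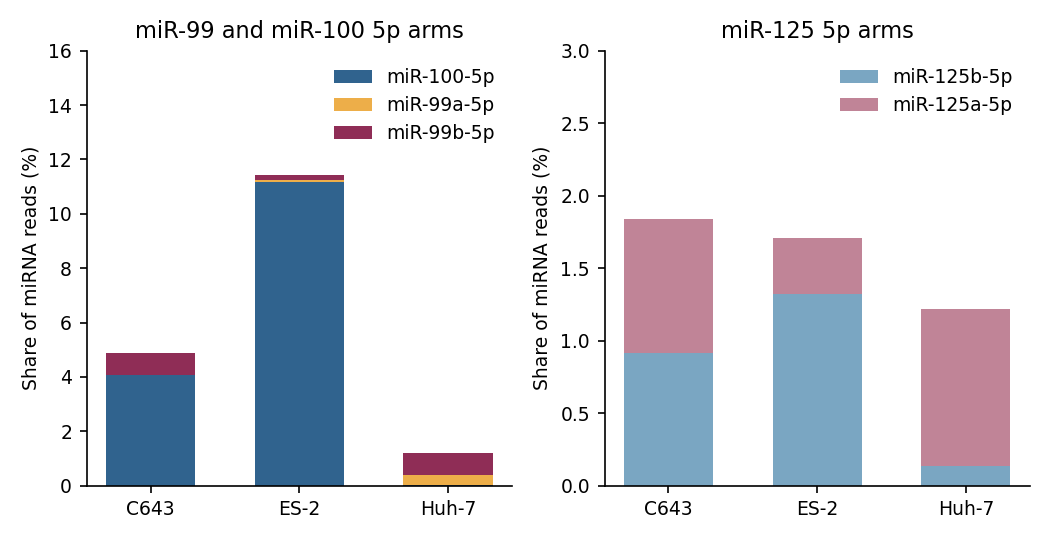
Share of miRNA reads (%) of the 5p arms that share a seed, stacked by miRNA, in C643, ES-2 and Huh-7. The sum of the miR-99 and miR-100 arms runs from 1.20% to 11.4%, that of the miR-125 arms from 1.22% to 1.84%, and the leading paralog differs between lines in both.

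Within a library, the members were ordered by their reads. In C643, the neighbours miR-125a-5p and miR-125b-5p (0.922% and 0.918%) did not differ beyond counting error, with a ratio of 1.005 (0.995 to 1.02). In ES-2, miR-125b-2-3p and miR-125a-3p lay close, with 87 and 61 reads and a ratio of 1.43 (1.03 to 1.98). In Huh-7, miR-99b-3p and miR-100-5p lay close, with 960 and 868 reads and a ratio of 1.11 (1.009 to 1.21). miR-99a-3p and miR-125b-1-3p, with 2 and 0 reads there, could not be ordered. miR-125a-5p led the members in Huh-7, and miR-100-5p led them in C643 and ES-2.

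Ratios between neighbours of 1 cluster were compared next. miR-99b-5p was 0.854 of miR-125a-5p in C643 (0.845 to 0.863) and 0.559 in ES-2 (0.537 to 0.583), against 0.753 in Huh-7 (0.738 to 0.768), a range of 1.53-fold. On chromosome 21, miR-99a-5p was 15.3-fold miR-125b-2-3p in ES-2 (12.3 to 18.97) and 16.4-fold in Huh-7 (14.9 to 18.1). Those did not differ beyond counting error, with a quotient of 0.93 (0.734 to 1.18). In C643 the ratio was 1.49 (1.29 to 1.72), with 447 and 300 reads, far lower than in the other lines. On chromosome 11, miR-100-5p was 44.6-fold miR-125b-1-3p in C643 (43.6 to 45.6) and 231-fold in ES-2 (216 to 248). C643 thus had more of both miR-125b 3p arms for its miR-99a-5p and miR-100-5p than ES-2 had.

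The let-7 products of chromosomes 19 and 21 had their lowest ratios to their miR-99 neighbours in Huh-7. let-7e-5p, from the precursor that lies 104 bases after MIR99B, had 118855 reads in C643, 7824 reads in ES-2 and 8834 reads in Huh-7. Its shares were 1.45%, 0.470% and 0.406%. Its ratio to miR-99b-5p was 1.84 in C643 (1.83 to 1.86) and 2.21 in ES-2 (2.12 to 2.297), against 0.501 in Huh-7 (0.488 to 0.514). Against miR-125a-5p the ratios were 1.57, 1.23 and 0.377. Huh-7 was the lowest for the 3p arms too. let-7e-3p stood at 0.086 of miR-99b-3p in C643 (0.0767 to 0.0965) and 0.126 in ES-2 (0.0848 to 0.188), against 0.0167 in Huh-7 (0.0102 to 0.0272). These ratios rest on 316, 27 and 16 reads of let-7e-3p. C643 and ES-2 did not differ beyond counting error there (0.682-fold, 0.45 to 1.03). ES-2 exceeded Huh-7 4.41-fold in the 5p ratio (4.20 to 4.62) and 7.57-fold in the 3p ratio (4.01 to 14.3).

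On chromosome 21, let-7c-5p had 5953 reads in C643, 2791 reads in ES-2 and 1768 reads in Huh-7. It stood at 13.3-fold, 2.10-fold and 0.235 of miR-99a-5p in these lines, so that Huh-7 was again the lowest. By share, let-7c-5p itself was lowest in C643, at 0.0727%, with 0.168% in ES-2 and 0.0813% in Huh-7, while miR-99a-5p was highest in Huh-7. let-7c-3p had 31, 17 and 0 reads, and by share ES-2 exceeded C643 2.70-fold (1.49 to 4.87). let-7a-5p, made at 3 loci and 1 base apart from both let-7c-5p and let-7e-5p, held 13.8% of reads in C643 and 11.9% in ES-2, against 0.488% in Huh-7. Its part in the 5p ratios of let-7c and let-7e was not tested.

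**Figure D4:**
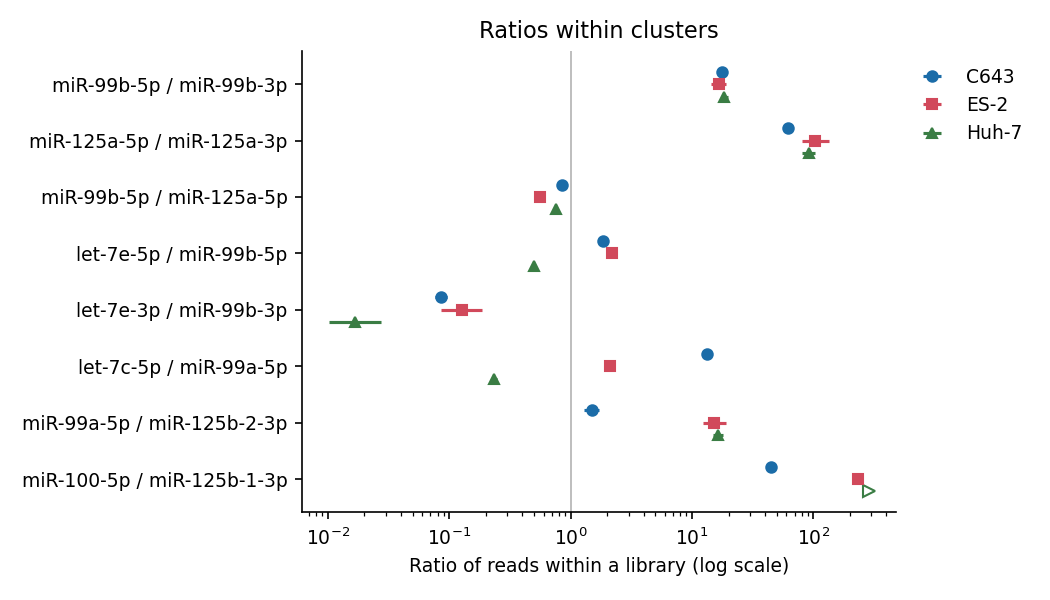
Ratios of reads within a library (log scale) for arms and neighbours of the clusters, with 95% counting intervals. The open arrow is a lower bound of 289, from 868 reads against the floor of 3. The miR-99b arms lie between 16.6 and 18.4 in all 3 libraries, and the ratios of let-7e and let-7c to their miR-99 neighbours are lowest in Huh-7.

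The ES-2 and Huh-7 columns of 1 deposited table were compared over all miRNAs at 10 or more in either, on the log2(value + 1) scale. A 4-fold limit was passed in favour of ES-2 by 3 of the 10 members, miR-100-5p, miR-125b-1-3p and miR-125b-5p, and by 19.5% of all 390 miRNAs tested. In favour of Huh-7 it was passed by 0 members and by 27.7% of all. The log2 differences were 9.04 for miR-100-5p, 9.13 for miR-125b-1-3p and 4.17 for miR-125b-5p, the second of which rests on the value added to a library at 0. The other 6 members tested lay between -0.58 and -1.20, all lower in ES-2, and miR-99a-3p was too low to be tested. The median over all 390 miRNAs was -0.54. By share the difference in favour of Huh-7 was larger, from 2.83-fold for miR-125a-5p to 4.32-fold for miR-99a-5p, because the deposited columns differ in their sums, and scaling to them lowers each log2 difference by 0.92. No member tested changed direction between these scales. An exact binomial test on the reads took library sizes from the deposited scale and compares these libraries, not the lines. By that test 3 members favoured ES-2, as did 34.4% of all tested, and 6 favoured Huh-7, as did 53.8%. Scaled to the column sums, ES-2 had the higher value for 65 of the miRNAs called and Huh-7 for 181, so that 26.4% of calls favoured ES-2, against 41.3% on the deposited scale.

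**Figure D5:**
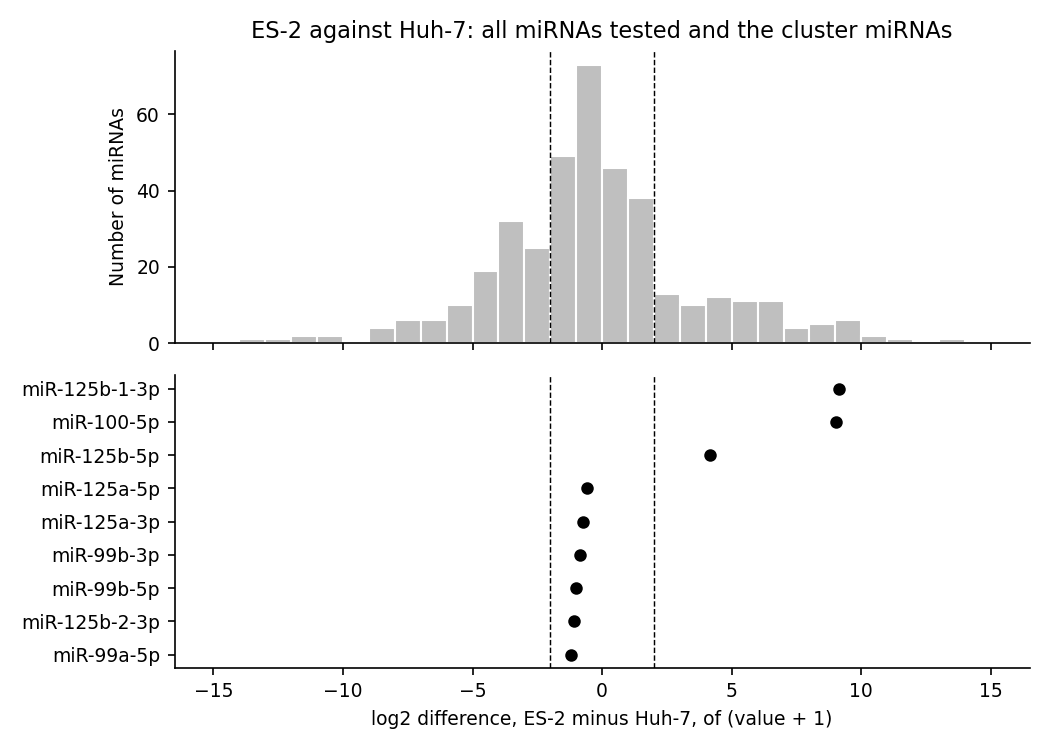
log2 difference of deposited values plus 1, ES-2 minus Huh-7, as counts of all 390 miRNAs tested (top) and for the 9 members tested (bottom). Dashed lines mark the 4-fold limits. 3 members lie beyond the upper limit, at 4.17, 9.04 and 9.13, and the others lie within the limits.

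The C643 values come from a separate table, whose normalization may differ, so levels across the tables were only described. Against Huh-7, 3 members were at least 4-fold higher in C643, where 22.6% of 399 miRNAs were, and they were miR-100-5p, miR-125b-1-3p and miR-125b-5p at log2 differences of 7.31, 9.77 and 3.37. These comparisons share the Huh-7 library. miR-99a-5p alone was at least 4-fold higher in Huh-7, where 25.1% were, with a log2 difference of -5.31. The calls over all miRNAs were 47.4% higher in C643, or 32.9% with scaling to the column sums. Against ES-2, miR-99a-5p was at least 4-fold higher in ES-2, where 10.8% of 351 miRNAs were, with a log2 difference of -4.11. There 0 members were at least 4-fold higher in C643, where 15.4% were. miR-125a-3p came nearest with 1.74, from 1225 and 61 reads, and then miR-99b-5p with 1.62. By share, without a pseudocount, miR-125a-3p was 4.08-fold higher in C643 than in ES-2 (3.16 to 5.28), an interval that includes 4. With the pseudocount and scaling to the column sums, the count of members at least 4-fold higher in C643 was also 0.

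The miRNAs whose share followed a member most closely over the 3 libraries were sought among 203 other miRNAs, by the largest difference of the centred log2 share. miR-197-3p lay nearest to miR-99b-5p, within 0.14, and miR-452-5p to miR-125a-5p, within 0.12. miR-199a-5p lay within 0.24 of miR-100-5p and miR-222-3p within 0.26 of miR-125b-5p. miR-99a-5p had no close match, the nearest being miR-502-3p at 0.77. The second places went to miR-3613-5p, miR-589-5p, miR-361-3p, miR-29a-3p and miR-18a-5p in the same order of members. In Huh-7 miR-199a-5p held 0.00023% of reads and miR-361-3p 0. Their distances to miR-100-5p thus depend on the value added to each share before the log2. With 3 libraries such a likeness has little resolution.

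miR-10a and miR-10b, from the HOX clusters, are related in sequence to the miR-99 and miR-100 arms but carry another seed. miR-10a-5p had 86237 reads in C643, 17083 reads in ES-2 and 20 reads in Huh-7, or 1.05%, 1.03% and 0.00092%. miR-10a-3p had 1337, 121 and 0 reads, with 0.0163% in C643 and 0.00728% in ES-2. Both were low in Huh-7 alone, as was miR-100-5p. Between C643 and ES-2, miR-10a-5p was nearly level, 1.03-fold higher in C643 by share (1.009 to 1.04), whereas miR-100-5p was higher in ES-2. miR-10b-5p held 0.0583%, 0.253% and 0.437% of reads, and miR-10b-3p 0.000758%, 0.00192% and 0.00304%, from 62, 32 and 66 reads. By share, miR-10b-5p thus had the same order of lines as miR-99a-5p.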

How the data were processed

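Small RNA of 1 library per cell line was analysed. Per the labels, total RNA was extracted with TRIZOL and libraries were made with a NEXTflex kit for Illumina sequencing. The submitters' processing notes name cutadapt 1.14, Bowtie2 2.3.3, SAMtools 1.5, featureCounts 1.5.3, edgeR 3.18.1 and hg38, without settings. The deposited signal values are reads per locus times 1 factor per library and are named CPM, but their columns sum to 959302, 1154552 and 612015 for C643, ES-2 and Huh-7, respectively. Dividing by the smallest nonzero value gave whole reads (within 0.01) for 100% of nonzero values.

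Loci of a mature miRNA were summed. Shares have Wilson intervals, ratios within a library the odds of that interval, and quotients between libraries a log-normal interval from the reads. At 0 reads, bounds use 3 reads. PCR copies would make intervals too narrow. Libraries were compared at a pseudocount of 1, a minimum of 10 and 4-fold, with scripts tested on simulated data. Alternatives were other pseudocounts, filters, thresholds and scalings, 1 locus per miRNA, miR-21-5p left out and an exact binomial test on the recovered reads. That test took library sizes from the deposited factors and called 134 of 390 miRNAs in favour of ES-2 and 210 in favour of Huh-7. Python 3.11.15 and scipy 1.17.1 were used. Named were all members, fixed lists of cluster partners and miR-10 relatives, let-7a-5p, miR-21-5p, miR-122-5p and, for each 5p member at 100 or more in any library, the 2 miRNAs of nearest centred log2 share. Members and lists were chosen with earlier results of these data known.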

Additional observations from a re-analysis of the deposited data

Results flagged for a closer look

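Some ratios of reads within a library lay above 1 in C643 and ES-2 and below 1 in Huh-7, beyond counting error in each. With 1 library per line the difference between lines was not tested. miR-125b-1-3p over miR-125b-2-3p was 24.9 in C643, 9.23 in ES-2 and at most 0.00656 in Huh-7, where the numerator had 0 reads. miR-100-5p over miR-99a-5p was 745, 140 and 0.116 in this order. let-7e-5p over miR-99b-5p was 1.84, 2.21 and 0.501, and over miR-125a-5p it was 1.57, 1.23 and 0.377. let-7c-5p over miR-99a-5p was 13.3, 2.10 and 0.235.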

How the results depend on the processing

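No paired analysis was possible because no line had a second library. Listing C643 first, then ES-2 and then Huh-7, the 10 members held 6.58%, 15.3% and 1.52% when values were divided by 1000000, 9.61%, 18.4% and 3.73% with miR-21-5p left out, and 7.70%, 14.7% and 2.66% with 1 locus per mature miRNA. The order of the lines was the same in each. The locus ratio of the miR-125b 3p arms in Huh-7 was 0.00771 with a pseudocount of 1. Against ES-2, 3 members were higher in Huh-7 at 2-fold, as were 157 of 390 miRNAs, 1 with scaling to the library total, as were 181 of 437, and 6 by the exact binomial test on reads with Benjamini-Hochberg adjustment at 0.05, where 53.8% of miRNAs were called in that direction and 34.4% in the other. That test compares 2 libraries, on the deposited scale, and not the lines. At 2-fold, 4 members were higher in C643 than in ES-2, as were 115 of 351 miRNAs, and 2 lower, as were 89. In Huh-7 over C643 there were 2 members at 2-fold, beside 157 of 399 miRNAs, and 2 with scaling to the library total, beside 157 of 442. The other member counts for all 3 pairs were within 1.5 times of those reported. Of the values for single members, clusters and ratios, 109 were labelled moved and 110 were not. Moved meant beyond counting error, except for ratios given as bounds, which have no interval and were always labelled moved. Reversal, a crossing of 1, was defined for ratios only, and none reversed. These ratios lie within a library, so they say nothing on directions between lines. With 1 locus per mature miRNA, miR-125b-5p held 0.560%, 0.777% and 0.0779%. miR-99a-3p had too few reads to compare in any line. How reads that match several loci, as those of miR-125b-5p do, were placed is not given in the sources used here.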
